A study of Mus musculus with 8 samples.

Results

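The distal ends of the mouse autosomes were taken as the last 10 Mb of each of the 19 autosomes of the mm9 assembly, at the high-coordinate end. They were divided into windows of 1 Mb counted back from the last base, which gave 190 windows of the 2463 that fit on the autosomes, and all 190 held at least 0.5 Mb of sequenced (non-N) bases. Mouse chromosomes are telocentric, so that the centromere lies at the low-coordinate end and the distal end is the one that reaches the telomere of the long arm. 5-hydroxymethylcytosine (5hmC) is made from 5-methylcytosine by the Tet dioxygenases, mostly at CpG dinucleotides, and is known from gene bodies and enhancers of embryonic stem cells (ESCs) and of differentiated tissues. Mammalian genomes vary along each chromosome in gene content, GC content and CpG content, and these vary together, so all were measured beside the peaks.

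The study mapped 5hmC by GLIB-Seq, in which 5hmC is glucosylated, the sugar is opened with periodate and coupled to biotin, and the captured DNA is sequenced. The libraries came from E14 ESCs, from fibroblasts of C57BL/6 embryos (MEFs; embryonic day 11 by the labels, a later day by the methods), and from brain and liver of C57BL/6 mice aged 8 weeks. The other libraries came from E14 ESCs given a control hairpin to GFP (shGFP) or a hairpin to Suz12 (shSuz12), a subunit of Polycomb repressive complex 2, and selected with puromycin. RNA of these cells was not analysed here, so the loss of Suz12 was not checked, and which Suz12 hairpin the sequenced cells carried is not named in the sources used here. On the autosomes the deposited lists held 171520 peaks in ESCs, 216254 in MEFs, 157473 in brain, 130289 in liver, 132625 in shGFP ESCs and 138224 in shSuz12 ESCs. Each group had 1 library, so no difference between groups was tested, and the exact 95% intervals below cover counting error only. Where 6 values follow each other without names, they stand in the order ESCs, MEFs, brain, liver, shGFP ESCs and shSuz12 ESCs.

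5hmC peaks were denser in the distal ends than in the rest of the same chromosomes in all 6 libraries. The distal ends hold 7.89% of the sequenced autosomal bases (189 Mb, against 2205 Mb in the rest). They held 22507 peak midpoints in ESCs, 25737 in MEFs, 19391 in brain, 15148 in liver, 17036 in shGFP ESCs and 18100 in shSuz12 ESCs, which was 13.1, 11.9, 12.3, 11.6, 12.8 and 13.1% of the autosomal peaks. Each library thus had a larger part of its peaks in the ends than the ends have of the sequence. The density was 119 peaks per Mb in ESCs, 136 in MEFs, 103 in brain, 80.2 in liver, 90.2 in shGFP ESCs and 95.9 in shSuz12 ESCs, against 67.6, 86.4, 62.6, 52.2, 52.4 and 54.5 peaks per Mb in the rest. The distal to rest ratio of peak density was therefore 1.76 in ESCs (1.74 to 1.79), 1.58 in MEFs (1.56 to 1.6), 1.64 in brain (1.62 to 1.66), 1.54 in liver (1.51 to 1.56), 1.72 in shGFP ESCs (1.69 to 1.75) and 1.76 in shSuz12 ESCs (1.73 to 1.79). Every interval lay above 1, but the order of the libraries depended on how the ratio was taken. When each list was cut at a score of 80, shSuz12 ESCs (2.11), brain (1.95), shGFP ESCs (1.87) and MEFs (1.79) lay above ESCs (1.76). For the median autosome MEFs and brain lay above all 3 ESC libraries. Peaks covered 13.7, 14, 13.4, 11.2, 8.87 and 6.01% of the distal bases and 6.94, 8.21, 7.68, 6.73, 4.72 and 3.26% of the rest, so the ratio of covered bases was 1.97, 1.7, 1.74, 1.66, 1.88 and 1.84. By bases covered the difference between the ends and the rest was thus larger than by number of peaks in each library.

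The opposite, centromere-side ends of the 19 autosomes combined were poorer in peaks than the middle of the chromosomes. The first 10 Mb from the first sequenced base had 0.738 times the peak density of the middle in ESCs, 0.742 in MEFs, 0.738 in brain, 0.812 in liver, 0.791 in shGFP ESCs and 0.769 in shSuz12 ESCs. On 4, 4, 6, 5, 5 and 4 of the 19 autosomes the proximal end was the denser of these. For the distal ends the same ratio to the middle was 1.72, 1.54, 1.6, 1.51, 1.69 and 1.72. The distal end was denser than the proximal end of the same chromosome on 17, 18, 18, 14, 16 and 17 of the 19 autosomes.

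Gene density was also higher in the distal ends, but by less than peak density. GENCODE places 2032 transcription start sites (TSSs) of protein-coding genes there, 10.8 per Mb, against 8.79 per Mb in the rest, a ratio of 1.22. Exons of these genes cover 3.77% of the distal bases and 3.03% of the rest, and the gene spans cover 45.6 and 39.1%. The GC content is 44.1% in the distal ends and 41.7% in the rest, and there are 10.5 CpGs per kb against 8.33, a ratio of 1.26. All of these features were thus raised at the ends, each by a smaller factor than the peaks.

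The ends of single autosomes differed widely. The ratio of peak density was above 1 on 16, 16, 16, 15, 16 and 16 of the 19 autosomes, and on the same 15 autosomes in all 6 libraries: chromosomes 1, 4 to 16 and 19. It was below 1 in all 6 libraries on chromosomes 3, 17 and 18, and on chromosome 2 it was below 1 in liver only (0.908, 0.827 to 0.995). The median over the autosomes was 1.5 in ESCs, 1.72 in MEFs, 1.68 in brain, 1.41 in liver, 1.39 in shGFP ESCs and 1.42 in shSuz12 ESCs. The ratio of all autosomes together therefore lay above that of the median autosome in the ESC libraries and liver, and below it in MEFs and brain. Against the rest windows of all autosomes with a like number of genes, chromosomes 7 and 12 turned below 1 in some libraries. Chromosome 7 was then at 0.957 in liver, 0.909 in shGFP ESCs and 0.85 in shSuz12 ESCs, and chromosome 12 at 0.866 in MEFs.

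The ends of chromosomes 4, 8, 11, 15 and 16 were among the richest. On chromosome 8 the last 10 Mb had 261 peaks per Mb in ESCs, 212 in MEFs, 172 in brain, 148 in liver, 214 in shGFP ESCs and 241 in shSuz12 ESCs, which was 2.38, 2.43, 2.68, 2.92, 2.61 and 2.69 times the rest of the chromosome, with 1.51 times its gene density and 1.58 times its CpG density. Peaks covered 37.4, 23, 23.9, 22.6, 25 and 16.8% of this end. On chromosome 4 the ratio was 2.99 in ESCs, 1.83 in MEFs, 2.46 in brain, 2.22 in liver, 2.65 in shGFP ESCs and 2.94 in shSuz12 ESCs, beside a gene density ratio of 1.9996 and the highest CpG density ratio of the 19 autosomes, 1.67. These ends were rich in every library, with MEFs the lowest on chromosome 4 and liver the highest on chromosome 8. On chromosome 15 the ratio was 2.82 in ESCs, 2.15 in MEFs, 1.91 in brain, 1.98 in liver, 2.87 in shGFP ESCs and 2.77 in shSuz12 ESCs, with the highest gene density ratio, 3.01. On chromosomes 11 and 16 it was 2.32, 1.96, 2.1, 2.09, 2.38 and 2.43, and 2.72, 2.38, 2.59, 1.66, 2.44 and 2.5. The ESC libraries stood above the differentiated cells on chromosome 15, while on chromosome 16 liver alone was far lower than the other libraries. In liver, chromosomes 6 (2.08) and 5 (1.91) lay above chromosome 16.

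The ends of chromosomes 3, 17 and 18 were poor in genes, and in peaks when all windows were taken alike. Chromosome 3 had a ratio of 0.702 in ESCs, 0.987 in MEFs, 0.951 in brain, 0.386 in liver, 0.578 in shGFP ESCs and 0.639 in shSuz12 ESCs, with 0.606 times the gene density of its rest. Chromosome 17 had 0.89, 0.791, 0.922, 0.856, 0.862 and 0.901, although its gene density ratio was the lowest of all, 0.287, and chromosome 18 had 0.774, 0.852, 0.935, 0.492, 0.761 and 0.834 with a gene density ratio of 0.396. Liver was the lowest library on chromosomes 3 and 18, and by a wide margin. The interval reached above 1 in MEFs (0.918 to 1.06) and brain (0.867 to 1.04) on chromosome 3, and in brain on chromosome 18 (0.859 to 1.02). By bases covered chromosome 18 was at 1.03 in brain. All 3 ends turned above 1 in brain among peaks with a score of at least 80, where 19 of 19 autosomes were above 1, and in MEFs for the last 20 Mb, with 19 of 19. Against the rest windows of all autosomes with a like number of genes, chromosome 17 was at 1.75, 1.04, 1.37, 1.52, 1.64 and 1.72 and chromosome 18 at 1.29, 1.14, 1.34, 0.865, 1.19 and 1.29, above 1 in all but liver on chromosome 18, while chromosome 3 stayed below 1 at 0.657, 0.93, 0.85, 0.401, 0.568 and 0.6.

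Gene density and peak density did not always go together. Chromosome 14 had 0.476 times the gene density of its rest at the distal end but 1.5, 1.76, 1.73, 1.36, 1.48 and 1.43 times the peak density, and chromosome 19 had 0.483 times the gene density but 1.1, 1.57, 1.49, 1.22, 1.08 and 1.17 times the peak density. Chromosome 10 was the reverse, with 2.46 times the gene density and 1.4, 1.26, 1.25, 1.44, 1.39 and 1.42 times the peak density. On chromosome 12 MEFs had 1.02 (0.947 to 1.1) while ESCs had 1.82 (1.7 to 1.95), so that end was raised in ESCs and not in MEFs. Across the 19 autosomes, which share a library, the Spearman correlation of the peak ratio with the gene density ratio was 0.753, 0.523, 0.537, 0.654, 0.767 and 0.77, and with the CpG density ratio 0.891, 0.867, 0.854, 0.907, 0.895 and 0.884. The order of the autosomes thus followed CpG density more closely than gene density in each library.

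The excess was not spread evenly over the last 10 Mb. The last 1 Mb was the poorest in every library, at 0.683 times the rest of the autosomes in ESCs, 0.54 in MEFs, 0.518 in brain, 0.957 in liver, 0.635 in shGFP ESCs and 0.65 in shSuz12 ESCs. It nevertheless holds 13.8 protein-coding TSSs per Mb, more than the distal ends as a whole, at only 7.36 CpGs per kb. Of the 19 last windows, 5, 4, 4, 7, 4 and 4 exceeded the rest of their own chromosome. Of the 19 second windows from the end 8, 10, 9, 9, 7 and 6 did, and of the 19 twentieth windows 10, 12, 11, 7, 10 and 10. Liver thus had as many among the last as among the twentieth windows. The share of all windows that exceed the rest is not given here. Chromosome 4 gave the most peaks of any last window in the libraries other than MEFs, where chromosome 5 did, and without that chromosome, an alternative chosen after seeing the data, the last 1 Mb was at 0.546, 0.482, 0.428, 0.79, 0.532 and 0.507 times the rest. The second window from the end was at 1.13, 0.978, 1.05, 1.17, 1.14 and 1.15 times the rest. The density therefore rose from the last window to the second in every library.

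Among the last 10 windows, the eighth from the end was the richest in 5 libraries, at 2.31 times the rest in ESCs, 2.22 in MEFs, 2.25 in brain, 2.23 in shGFP ESCs and 2.32 in shSuz12 ESCs, while in liver it was the fourth, at 1.8. Just inside the limit of 10 Mb, the tenth window was at 1.62, 1.57, 1.5, 1.22, 1.63 and 1.64 times the rest. Just outside it, the eleventh was at 1.15, 1.48, 1.46, 0.855, 1.17 and 1.21. The windows from 11 to 20 Mb lay at 1.15 to 2.54 times the rest in ESCs, 1.08 to 1.83 in MEFs and 0.855 to 2.33 in liver. The fifteenth, at 2.54, 1.83, 1.95, 2.33, 2.42 and 2.48, was denser than any of the last 10 in the 3 ESC libraries and liver. The higher density was thus not limited to the last 10 Mb, and the windows beyond the limit are part of the rest it was compared with.

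Windows with a like number of genes were compared next, since the distal ends hold more genes. Had each distal window held peaks at the mean density of the rest windows of its gene class (0, 1 to 5, 6 to 15, 16 to 30 or over 30 protein-coding TSSs), the distal ends would have held 14670 peaks in ESCs, 17548 in MEFs, 12964 in brain, 11240 in liver, 11309 in shGFP ESCs and 11738 in shSuz12 ESCs. The distal to rest ratio at equal gene class was 1.53 in ESCs (1.51 to 1.55), 1.47 in MEFs (1.45 to 1.48), 1.5 in brain (1.47 to 1.52), 1.35 in liver (1.33 to 1.37), 1.51 in shGFP ESCs (1.48 to 1.53) and 1.54 in shSuz12 ESCs (1.52 to 1.56). With 5 classes of GC content in place of gene number, the ratio was 1.06, 1.19, 1.14, 1.03, 1.06 and 1.09. Most of the excess was therefore still seen at equal gene number, and less of it at equal GC content.

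The excess was smallest in the windows with the most genes. In the 15 distal windows with over 30 protein-coding TSSs, the density was 1.11, 1.28, 1.23, 1.16, 1.18 and 1.21 times that of the 98 rest windows of this class. In the 71 windows with 1 to 5 it was 1.7, 1.57, 1.62, 1.64, 1.53 and 1.6 times, and in the 70 with 6 to 15 it was 1.68, 1.4, 1.45, 1.27, 1.64 and 1.68 times. In the 27 windows with 16 to 30 it was 1.42, 1.46, 1.48, 1.26, 1.44 and 1.46 times, so every class was denser in the ends. Only 7 distal windows had no protein-coding TSS, and their ratio was 4.95, 3.09, 4.47, 19.7, 3.87 and 3.49, but 2 of them, singled out after their values were seen, decided it. These overlap Sox5, a transcription factor of cartilage and neural development (chr6:143517038-144517037), and Pard3, a cell polarity protein (chr8:129738872-130738871), whose TSSs fall in neighbouring windows. Without them the ratio was 0.443, 0.826, 0.934, 1.15, 0.76 and 0.903. The Sox5 window held 68 peaks in ESCs, 217 in MEFs, 162 in brain, 185 in liver, 59 in shGFP ESCs and 48 in shSuz12 ESCs, and the Pard3 window 93, 144, 100, 114, 76 and 71. The Sox5 window was richer in liver, MEFs and brain than in the ESC libraries.

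Across the 190 distal windows, peak density followed CpG density. The Spearman correlation with CpGs per kb was 0.959 in ESCs, 0.804 in MEFs, 0.885 in brain, 0.801 in liver, 0.95 in shGFP ESCs and 0.954 in shSuz12 ESCs, and with the number of protein-coding TSSs 0.598, 0.194, 0.355, 0.545, 0.585 and 0.566. Across the 2211 rest windows it was 0.947, 0.851, 0.902, 0.852, 0.938 and 0.942, and 0.687, 0.419, 0.519, 0.662, 0.665 and 0.662. Neighbouring windows share a chromosome and all windows of a library share its depth, so these values describe the windows and carry no test. The ESC libraries ranked the distal windows nearly alike, with a correlation of 0.99 between ESCs and shGFP ESCs and 0.989 between shGFP and shSuz12 ESCs. The least alike were MEFs and liver, at 0.717.

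A window was called dense where its peak density was at least 2 times that of the rest of its chromosome. Of the 190 distal windows, 78 were dense in ESCs (41.1%), against 20.2% of all 2401 autosomal windows with 0.5 Mb sequenced. In MEFs 64 were dense (33.7%, against 14.4%), in brain 77 (40.5%, against 17.6%) and in liver 65 (34.2%, against 19.7%). In shGFP ESCs 73 were dense (38.4%, against 19.4%) and in shSuz12 ESCs 72 (37.9%, against 19%). Dense windows were thus more common in the ends than on the autosomes as a whole in each library. In all 6 libraries together 30 distal windows were dense (15.8%, against 5.5%), among them 5 on chromosome 8, 4 on chromosome 4 and 3 each on chromosomes 15 and 16. Chromosomes 7, 9 and 18 had none.

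Many of the densest windows of the autosomes lay in the distal ends. When the 2401 windows were ranked by their mean percentile over the 6 libraries, 35 of the first 100 and 5 of the first 10 were distal, where 7.91% of all windows are. The densest autosomal window of each single library was distal as well. It was the seventh window from the end of chromosome 8 in ESCs (368 peaks) and shGFP ESCs (308), and the ninth in shSuz12 ESCs (386). In brain and liver it was chr17:86272652-87272651 on the otherwise poor end of chromosome 17, with 256 peaks in brain and 267 in liver, against 221 in ESCs. In MEFs it was chr16:92319151-93319150, with 322 peaks, against 122 in ESCs and 49 in liver. Of the 20 densest distal windows, 7 were on chromosome 8, 5 on chromosome 11 and 3 on chromosome 4.

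The genes of these last windows were chosen after their values were seen. The window on chromosome 17 holds Prkce, a protein kinase C, and Epas1, a transcription factor of the response to low oxygen. Of the span of Epas1 (chr17:87153247-87232750), 48.8% in ESCs, 34.7% in MEFs, 61.5% in brain, 82% in liver, 32.6% in shGFP ESCs and 17.5% in shSuz12 ESCs lay under peaks. Of Prkce (chr17:86567125-87057259) it was 24.9, 32.2, 48.1, 59.1, 13.4 and 12.3%. Both genes were most covered in liver, then in brain. The window on chromosome 16 holds Runx1, a transcription factor of blood formation (chr16:92601712-92826311), of which 13.3% in ESCs, 43.4% in MEFs, 23.9% in brain, 4.94% in liver, 11.4% in shGFP ESCs and 7.28% in shSuz12 ESCs lay under peaks, and Rcan1, a regulator of calcineurin, with 49.7, 58.1, 63.9, 69.6, 38.7 and 29.7%. Runx1 was most covered in MEFs and least in liver, while Rcan1 was most covered in liver.

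The window with the highest rank was chr8:122738872-123738871, with 9 protein-coding TSSs and 17.5 CpGs per kb. It held 326 peaks in ESCs, 312 in MEFs, 231 in brain, 177 in liver, 294 in shGFP ESCs and 386 in shSuz12 ESCs, and 58.6, 39.6, 34.6, 31.4, 43.5 and 29.6% of its bases were covered. It was thus the densest of all autosomal windows by this rank, and in ESCs it was the most covered distal window. Gse1 (chr8:123012766-123105290), a protein of a histone deacetylase complex, lay largely under peaks, with 77.7% of its span in ESCs, 62.8% in MEFs, 63.4% in brain, 77.2% in liver, 76.9% in shGFP ESCs and 50.4% in shSuz12 ESCs. In ESCs 15 broad peaks made up this cover, and in shSuz12 ESCs 55 narrower ones. Irf8 (chr8:123260258-123280594), an interferon regulatory factor of myeloid cells, was covered over 78.3, 52.3, 54.8, 47.9, 53.4 and 36.7% of its span. Cox4nb (chr8:123177814-123192012) had 79.3, 16.4, 58.7, 53.3, 59.7 and 52.1%, with MEFs far below the other libraries.

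The next in rank was chr8:124738872-125738871, also on chromosome 8, with 28 protein-coding TSSs and 368, 239, 211, 229, 308 and 347 peaks. Peaks covered 57.8, 24.1, 30.7, 35.5, 37.3 and 25.1% of it. No other autosomal window held as many peaks in ESCs, and brain had the fewest of the libraries. Of Zfpm1 (chr8:124806039-124861146), a cofactor of GATA factors, 73.6% in ESCs, 31.8% in MEFs, 64.9% in brain, 85.2% in liver, 52.2% in shGFP ESCs and 35.2% in shSuz12 ESCs lay under peaks. Of Fam38a (chr8:125005598-125075229), the mechanosensitive channel Piezo1, it was 83, 37.2, 34.1, 29.3, 69.4 and 52.7%, and of Ankrd11 (chr8:125407221-125565897), a chromatin regulator, 56.1, 30.5, 29.4, 60.6, 36.6 and 24.5%. Fam38a was most covered in the ESC libraries, and Zfpm1 in liver.

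Another window of chromosome 8, chr8:123738872-124738871, held 357, 293, 241, 149, 280 and 319 peaks and Banp, Zcchc14 and Fbxo31, a subunit of a ubiquitin ligase. Of Fbxo31 (chr8:124075879-124102706), 86.2, 53.8, 62.1, 86, 75.3 and 55.3% lay under peaks, of Zcchc14 79.7, 45.2, 62, 82.6, 58.2 and 36.4% and of Banp 59.5, 33.5, 49.6, 65.1, 32.8 and 21.6%. All 3 genes were covered in every library. The tenth window from the end of chromosome 8, chr8:121738872-122738871, held 322, 225, 212, 139, 257 and 309 peaks, and with them Usp10, a deubiquitinase (70.1, 38, 56.2, 64.1, 56.9 and 38% of its span), and Crispld2, a secreted protein (46.9, 54.9, 44, 18.3, 29.7 and 16.5%). Cdh13, the T-cadherin gene, begins outside the last 10 Mb and ends in this window (chr8:120807633-121848821). It had 149 peaks in ESCs, 133 in MEFs, 173 in brain, 0 in liver, 106 in shGFP ESCs and 142 in shSuz12 ESCs, so liver alone was bare over the whole gene.

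On chromosome 4 the densest windows were chr4:148630121-149630120, with 316, 269, 217, 217, 250 and 263 peaks, and chr4:149630121-150630120, with 273, 257, 198, 235, 180 and 210. The first holds Ube4b, a ubiquitin chain assembly factor (chr4:148702525-148800858), of which 45.4% in ESCs, 29.1% in MEFs, 51.3% in brain, 57% in liver, 37.9% in shGFP ESCs and 26.1% in shSuz12 ESCs lay under peaks, and part of Kif1b, a kinesin motor, of which 16.3, 14.1, 20.7, 41.3, 13.7 and 6.24% did. Spsb1, an adaptor of ubiquitin ligases (chr4:149270392-149329152), was covered over 60.2, 74.3, 74.7, 11.9, 26.5 and 26.6%. Liver was highest on Ube4b and Kif1b and lowest on Spsb1, although these genes lie within 1 Mb. The other window holds Rere, a transcriptional coregulator (24.1, 25.6, 27.2, 44.3, 14 and 12.3% of its span), and the circadian gene Per3 (31.1, 16.8, 55.9, 56.5, 9.47 and 8.07%). Camta1 (chr4:150433633-151235985), a calmodulin-binding transcription activator that spans 2 windows, had 161 peaks in ESCs, 162 in MEFs, 185 in brain, 43 in liver, 106 in shGFP ESCs and 121 in shSuz12 ESCs. Liver had the fewest peaks of all libraries on Camta1 and covered the most of Rere.

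On chromosome 11 the window chr11:116843857-117843856 held 347, 287, 179, 182, 301 and 299 peaks. Its Sept9, a septin of the cytoskeleton (chr11:117060975-117223639), had 61.2% of its span under peaks in ESCs, 64.9% in MEFs, 43.1% in brain, 82% in liver, 37.2% in shGFP ESCs and 28.8% in shSuz12 ESCs, Sec14l1 73.8, 63.5, 52.5, 62.6, 53.8 and 41.2% and Tnrc6c, a protein of microRNA silencing, 32.7, 12.7, 18.7, 31.1, 21.4 and 13.6%. Sept9 was covered most in liver and least in the shSuz12 ESCs, whose peaks were the narrowest. The neighbouring window chr11:115843857-116843856 held 315, 224, 179, 162, 288 and 313 peaks, and with them Rnf157, Rhbdf2 and Mgat5b, a glycosyltransferase. Mgat5b (chr11:116780177-116848262) had 28 peaks in ESCs, 19 in MEFs, 15 in brain, 1 in liver, 26 in shGFP ESCs and 20 in shSuz12 ESCs, and Rhbdf2, a rhomboid-like protein, 10, 9, 8, 7, 13 and 15. Mgat5b was thus nearly bare in liver, while Rhbdf2 in the same window was covered there. In chr11:118843857-119843856, with 296, 205, 197, 237, 215 and 219 peaks, Rptor, a subunit of the mTOR complex 1, was covered over 31.2, 23.9, 39.7, 29, 15.1 and 12.1% of its span, Tbc1d16 over 57.3, 52.8, 68.8, 73.9, 38.3 and 21.2% and Baiap2, an actin regulator that crosses its edge, over 35.8, 23.8, 31.8, 71.7, 15.7 and 14.7%.

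On chromosome 16, chr16:91319151-92319150 held 280 peaks in ESCs, 252 in MEFs, 216 in brain, 198 in liver, 196 in shGFP ESCs and 197 in shSuz12 ESCs. These were 5.57, 3.34, 4.24, 3.97, 4.85 and 4.61 times the rest of the chromosome. Itsn1, a scaffold of endocytosis (chr16:91729526-91920842), had 36.8, 43, 53.3, 55.2, 24.4 and 14.5% of its span under peaks, and Mrps6, a mitochondrial ribosomal protein, 31, 20.1, 47.4, 47.8, 24 and 17%. The annotated span of Atp5o overlaps that of Itsn1, so their peaks cannot be told apart. Brain and liver were more covered than the ESC libraries over both Itsn1 and Mrps6.

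Other distal windows held few or no peaks in any library. In chr2:175748088-176748087, chr12:115257531-116257530 and chr17:92272652-93272651 none of the 6 lists held a peak, that is in 3 of the 190 distal windows (1.58%) and in 20 of the 2211 rest windows (0.905%). The window on chromosome 2 holds 16 protein-coding TSSs, and its neighbours chr2:174748088-175748087 and chr2:176748088-177748087, with 17 and 14, held 3, 2, 0, 0, 1 and 0 and 0, 0, 0, 0, 0 and 1 peaks. High gene number thus went with an almost empty stretch there. The window on chromosome 12 and the next one, chr12:116257531-117257530, which held 0, 0, 0, 0, 0 and 1 peaks, lie in the variable segments of the immunoglobulin heavy chain, such as Ighv1-73, which was named after its values were seen. The last window of chromosome 10, chr10:128993256-129993255, has 39 protein-coding TSSs, most of them of olfactory receptors, and held 8, 1, 0, 0, 10 and 6 peaks. Of the 20 distal windows with the lowest rank, 5 were on chromosome 18, 4 on chromosome 17, 3 on chromosome 2 and 2 each on chromosomes 3 and 12.

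The libraries were then compared window by window, as each window's share of the autosomal peaks of its list, among windows with at least 20 peaks in a pair of libraries together. Between ESCs and MEFs, 43 of 169 distal windows held at least 1.5 times the share in ESCs that they held in MEFs (25.4%, against 21.2% of all windows), and 55 were lower by that factor (32.5%, against 40.3%). Against brain, 25 of 160 distal windows held at least 1.5 times the share in ESCs that they held in brain (15.6%, against 16.9% of all windows), and 44 were lower by that factor (27.5%, against 34%). Against liver, 45 of 157 distal windows held at least 1.5 times the share in ESCs that they held in liver (28.7%, against 22.6% of all windows), and 31 were lower by that factor (19.7%, against 28.8%). Relative to all windows, fewer distal windows were lower in ESCs than in each of the differentiated cells. Between brain and liver, 52 of 161 distal windows held at least 1.5 times the share in brain that they held in liver (32.3%, against 29% of all windows), and 29 were lower by that factor (18%, against 22.3%). The share of all peaks that lay in the distal ends was 1.1 times as high in ESCs as in MEFs (1.08 to 1.13), 1.07 times as in brain (1.04 to 1.09) and 1.13 times as in liver (1.1 to 1.16). The distal to rest ratio of the single autosome was higher in ESCs on 10 of the 19 autosomes against MEFs, on 10 against brain and on 14 against liver. Among peaks with a score of at least 80 the direction turned against MEFs and brain, as it did for the median autosome. At that score the distal to rest ratio of shGFP ESCs (1.87) and shSuz12 ESCs (2.11) still lay above that of MEFs (1.79). That of brain (1.95) lay between them. Depth is unknown, and its part in the differences was not tested.

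The windows with the largest excess in MEFs over ESCs held long genes with few neighbours. The largest difference was in chr14:117194865-118194864, over the glypican gene Gpc6, with 5 peaks in ESCs, 189 in MEFs, 106 in brain, 19 in liver, 9 in shGFP ESCs and 14 in shSuz12 ESCs. Its share in ESCs was 0.0334 times (0.0107 to 0.0792) that in MEFs. Over the whole of Gpc6 (chr14:117324519-118378751) there were 10 peaks in ESCs, 236 in MEFs, 135 in brain, 28 in liver, 18 in shGFP ESCs and 20 in shSuz12 ESCs. Gpc6 was thus covered in MEFs and brain and nearly bare in the ESC libraries and liver. The next were the neighbouring window with part of Gpc5, another glypican (35 peaks in MEFs and 1 in ESCs, 0.036 times, 0.000887 to 0.214), and chr10:122993256-123993255 with part of Fam19a2 (31 and 1, 0.0407 times, 0.000998 to 0.244). Those with the largest excess in ESCs were full of genes: chr4:146630121-147630120 with 25 protein-coding TSSs, the last window of chromosome 4 with 45, and chr7:147524554-148524553 with 49. They held 111, 214 and 153 peaks in ESCs and 41, 91 and 74 in MEFs, shares 3.41, 2.96 and 2.61 times as high in ESCs. Agrn, a proteoglycan of the neuromuscular junction in the last window of chromosome 4, was covered over 54, 13.5, 63.8, 31.9, 35.5 and 30.4% of its span, and Clcn6, a chloride transporter in the first of these windows, over 42, 6.67, 35.2, 7.75, 21.7 and 9.86%.

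Between ESCs and brain, the windows richest in ESCs lay near the telomere. They were the last windows of chromosomes 15 and 6 and the second from the end of chromosome 10, with 101, 41 and 77 peaks in ESCs and 27, 13 and 28 in brain. The shares were 3.43 times (2.23 to 5.46), 2.9 times (1.52 to 5.89) and 2.52 times (1.62 to 4.04) those in brain. Erbb3, a receptor tyrosine kinase of the last of these, had 9 peaks in ESCs, 5 in MEFs, 1 in brain, 6 in liver, 6 in shGFP ESCs and 4 in shSuz12 ESCs, and Itga7, an integrin, 9, 2, 6, 9, 5 and 9. Erbb3 was thus under a peak in every library, with a single one in brain. Brain was richer in the windows with Gpc6, Negr1, a neuronal adhesion protein (chr3:155599784-156599783, 20 peaks against 1 in ESCs, 0.0459 times, 0.00111 to 0.287), and Slc16a7, a monocarboxylate transporter (chr10:123993256-124993255, 53 against 7, 0.121 times, 0.0465 to 0.268). Over the whole of Negr1 (chr3:156224758-156979409) there were 1, 28, 35, 2, 2 and 3 peaks, and over Slc16a7 2, 16, 20, 20, 0 and 2.

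The windows with the largest excess in ESCs over liver held 6 peaks or fewer in liver. In chr18:81772032-82772031, which holds the myelin basic protein gene Mbp, liver had 6 peaks and ESCs 68, a share 8.61 times (3.76 to 24.3) as high in ESCs. Mbp (chr18:82644538-82755029) had 30 peaks in ESCs, 38 in MEFs, 30 in brain, 3 in liver, 24 in shGFP ESCs and 22 in shSuz12 ESCs, while the neighbouring Zfp236 had 24, 17, 24, 34, 18 and 16. Liver was thus low on Mbp and over the window as a whole, since Mbp held only part of the ESC peaks. Most of the span of Zfp236 lies beyond this window. In chr3:153599784-154599783, which holds Slc44a5, liver had 6 peaks and ESCs 60 (7.6 times, 3.29 to 21.5), but Acadm, an enzyme of fatty acid oxidation that crosses the edge of this window, had 6, 6, 5, 8, 2 and 5 peaks and was most covered in liver, over 69.2% of its span. In chr15:94494975-95494974, with Tmem117 and Nell2, a secreted neural protein, liver had 4 peaks, ESCs 37 (7.03 times, 2.52 to 27.1) and brain 77 (15.9 times, 5.97 to 59.9). Nell2 had 13 peaks in ESCs, 55 in MEFs, 33 in brain, 0 in liver, 6 in shGFP ESCs and 15 in shSuz12 ESCs.

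A window with Parp8 held peaks in brain and none in liver. This window, chr13:117284313-118284312, held 34 peaks in brain, 72 in MEFs and 0 in liver, a share at least 9.38-fold higher in brain with liver set to a floor of 3 peaks. The reverse was found at the very end of some chromosomes, where liver was richer. The last windows of chromosomes 6, 19 and 8 held 44, 33 and 45 peaks in liver and 13, 10 and 14 in brain. Those of chromosomes 3 and 12 held 0 and 2 peaks in liver and 1 and 4 in brain. Nrp1, a semaphorin and growth factor receptor near the end of chromosome 8, had 4, 32, 9, 38, 6 and 5 peaks, and Dennd5b on chromosome 6 6, 3, 4, 18, 5 and 5, with liver the highest on both. Bicd1, in the same window as Dennd5b, had 6, 1, 1, 0, 4 and 4 peaks and was bare in liver. In the last window of chromosome 1, with Plxna2, a semaphorin receptor, liver had 26 peaks and ESCs 4, so the share in ESCs was 0.117 times (0.0296 to 0.337) that in liver.

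The shSuz12 and shGFP ESCs differed little in the share of their peaks that lay in the distal ends when all peaks were counted. A share does not show a difference common to the ends and the rest. Peaks covered 8.87% of the distal bases in shGFP ESCs and 6.01% in shSuz12 ESCs, and 4.72 and 3.26% of the rest. The lists start at different scores, and the part of this in the lower cover was not tested. The share of peaks there was 13.1% in shSuz12 ESCs and 12.8% in shGFP ESCs, a ratio of 1.02 (0.992 to 1.05). Its side of 1 depended on what was counted: it was 0.983 by bases covered and 0.973 for the highest-scoring 50% of each list, but 1.11 for peaks with a score of at least 80. Of 156 distal windows, 4 had at least 1.5 times the share in shSuz12 ESCs (2.56%, against 3.3% of all windows) and 3 were lower by that factor (1.92%, against 3.59%). These counts were near those of all windows. The window chr7:149524554-150524553, with the potassium channel gene Kcnq1 and Cd81, a tetraspanin, held 59 peaks in shGFP ESCs and 38 in shSuz12 ESCs, 0.618 times (0.4 to 0.945). It was picked from the 156 windows as 1 of the 3 lower ones, and its interval is not adjusted for that choice. The interval therefore does not establish a difference there. Over its whole span Kcnq1 had 21 peaks in shGFP ESCs and 12 in shSuz12 ESCs, while Cd81 had 1 and 3. Of the other windows called, the intervals of the 2 lower ones (chr1:195195433-196195432, 0.562 times, 0.29 to 1.06, and chr19:59342431-60342430, 0.614 times, 0.306 to 1.2) and of the 3 highest ones reached both sides of 1. The highest were chr3:156599784-157599783 (18 peaks against 9), chr13:118284313-119284312 (14 against 7) and chr13:119284313-120284312 (14 against 8), so a difference was not detectable at these peak numbers.

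Of the 2032 protein-coding genes whose TSS lies in the distal ends, most had at least 1 bp of their span under a peak. In ESCs these were 1558 genes (76.7%, 74.8 to 78.5%), against 70.1% of all 21418 autosomal genes. In MEFs they were 1402 (69%, against 63%), in brain 1390 (68.4%, against 63.3%) and in liver 1346 (66.2%, against 60.3%). In shGFP ESCs they were 1469 (72.3%, against 65.6%) and in shSuz12 ESCs 1455 (71.6%, against 65%). The distal genes were slightly more often covered in each library. Peaks in all 6 libraries were found on 937 distal genes (46.1%, against 39.4% of the others), and in none of them on 296 (14.6%, against 20%). Of the summed span of the distal genes, 20.8, 18.1, 21.1, 19, 13.1 and 9.04% lay under peaks, against 11.4, 11.8, 14, 13, 7.32 and 5.18% for the other genes, so the distal genes differed more in how much was covered than in how many were.

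Gene families at the ends differed from each other. The 87 distal olfactory receptor genes, 58 of them on chromosome 10, were mostly bare, with 8 under a peak in ESCs, 1 in MEFs, 3 in brain, 2 in liver, 4 in shGFP ESCs and 5 in shSuz12 ESCs, and 78 were under no peak in any library. These were 9.2, 1.15, 3.45, 2.3, 4.6 and 5.75% of them, against 3.53, 1.57, 0.883, 0.393, 2.06 and 1.86% of the 1019 elsewhere, so the family was mostly bare outside the ends too. Among the 45 solute carriers, transporters of the cell membrane and organelles, 43, 37, 42, 41, 42 and 41 were under a peak (95.6, 82.2, 93.3, 91.1, 93.3 and 91.1%), against 88.9, 84.2, 82.2, 78.2, 85.9 and 86.2% of those elsewhere, and none was bare in all libraries. Peaks covered 25.4, 21.3, 24.4, 19.9, 15.4 and 10.7% of their summed span, against 12.3, 11.5, 13.7, 14.8, 7.91 and 5.7% for the 298 solute carriers elsewhere. The distal solute carriers were thus more covered than the others in every library, as were the distal genes as a whole. Slc39a11, a zinc transporter on chromosome 11, had 89 peaks in ESCs, 124 in MEFs, 94 in brain, 58 in liver, 44 in shGFP ESCs and 66 in shSuz12 ESCs, Slc7a1, a transporter of cationic amino acids on chromosome 5, 27, 30, 24, 4, 22 and 25, and Slc4a8, a bicarbonate transporter on chromosome 15, 22, 21, 17, 2, 22 and 21. Of the span of Slc39a11 22.4, 33.3, 31.6, 16.6, 10.2 and 9.78% lay under peaks, of Slc7a1 52.9, 50.2, 47.3, 4.64, 33.7 and 20.4% and of Slc4a8 50.9, 36.6, 44, 3.77, 42.7 and 26%. Liver was the lowest library on Slc7a1 and Slc4a8, and below ESCs, MEFs and brain on Slc39a11.

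Of the 47 distal keratins and keratin-associated proteins, which build intermediate filaments and hair, 19, 15, 13, 5, 17 and 13 were under a peak (40.4, 31.9, 27.7, 10.6, 36.2 and 27.7%), against 44, 40, 26, 8, 32 and 32% of those elsewhere. These shares were below those of all distal genes in each library. Krt8, a keratin of simple epithelia (chr15:101827142-101834773), was covered over 57.1% of its span in ESCs, 19.5% in MEFs, 0% in brain, 66.4% in liver, 33.4% in shGFP ESCs and 13.4% in shSuz12 ESCs, and Krt80 over 17.9, 31.1, 19.5, 0, 8.8 and 11.3%. Liver was the highest on Krt8 and without a peak on Krt80. Of the 27 zinc finger (Zfp) genes, 19, 17, 20, 19, 19 and 19 were under a peak (70.4, 63, 74.1, 70.4, 70.4 and 70.4%), against 68.1, 49.9, 59.1, 62.1, 59.1 and 58.8% of those elsewhere. Those with the most covered bases were on chromosome 18, with 40, 98, 96, 63, 22 and 33 peaks on Zfp407 and 30, 37, 26, 26, 24 and 29 on Zfp516. Zfp407 had the most peaks in MEFs and brain. Of the 11 ribosomal protein names chosen by symbol, 2, 5, 4, 8, 2 and 2 were under a peak (18.2, 45.5, 36.4, 72.7, 18.2 and 18.2%), against 22.8, 32.3, 25.2, 49.6, 18.9 and 19.7% of those elsewhere, and the symbols include the kinase gene Rps6kc1. Rpl22 had 3, 1, 3, 3, 1 and 2 peaks and Rpl13 0, 2, 1, 1, 0 and 0.

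Of the 19 developmental transcription factors, 14 were under a peak in ESCs, 8 in MEFs, 7 in brain, 7 in liver, 15 in shGFP ESCs and 14 in shSuz12 ESCs. Of the 121 such genes elsewhere it was 69.4, 45.5, 39.7, 32.2, 75.2 and 71.1%, against 73.7, 42.1, 36.8, 36.8, 78.9 and 73.7% of the distal ones. More of them were under a peak in the ESC libraries than in the differentiated cells, in the ends and elsewhere. Of all distal genes 76.7, 69, 68.4, 66.2, 72.3 and 71.6% were under a peak. The 19 distal factors lay near these shares in the ESC libraries and far below them in the differentiated cells. Of their summed span 12.1, 22.1, 22.9, 31.9, 9.24 and 5.09% lay under peaks, against 17.5, 16.4, 16.6, 21.3, 14 and 7.88% elsewhere, but 78.2% of the distal span is that of Sox5. Without Sox5, left out after seeing the data, it was 29.1, 16.9, 23.6, 33.7, 21.6 and 11.3%, so the low value of ESCs rested on this gene. Sox5 alone (chr6:143776945-144730497) had 7.33% of its span under peaks in ESCs, 23.5% in MEFs, 22.8% in brain, 31.4% in liver, 5.8% in shGFP ESCs and 3.36% in shSuz12 ESCs. Foxk1, a forkhead factor on chromosome 5, was covered over 71.4, 54.7, 65.8, 82.4, 46.8 and 32.2%, and Foxk2 on chromosome 11 over 19.1, 3.67, 24.7, 39.7, 10.1 and 2.84%.

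The distal ends of chromosomes 2 and 7 hold genes listed as imprinted, that is, expressed from the allele of 1 parent in at least some tissues. From which allele they are expressed in these cells was not examined. Of 15 genes listed there, 14 had a protein-coding TSS in the last 10 Mb, and 10, 12, 8, 8, 11 and 11 of the 14 were under a peak (71.4, 85.7, 57.1, 57.1, 78.6 and 78.6%), against 76.7, 69, 68.4, 66.2, 72.3 and 71.6% of all distal genes. Kcnq1 (chr7:150293159-150612955) had 29 peaks in ESCs, 56 in MEFs, 31 in brain, 22 in liver, 21 in shGFP ESCs and 12 in shSuz12 ESCs. Gnas, the G protein alpha subunit gene (chr2:174109821-174172245), had 7, 17, 7, 6, 10 and 8 peaks, and Osbpl5, a lipid transfer protein, 8, 4, 7, 11, 6 and 4. Kcnq1 had the most peaks in MEFs and the fewest in shSuz12 ESCs. The growth factor gene Igf2 had 3, 2, 0, 0, 4 and 1 peaks and the cell cycle inhibitor gene Cdkn1c 0, 1, 0, 1, 2 and 1, while Phlda2 had none in any library, 3 genes singled out after their values were seen. Igf2 was thus without a peak in brain and liver, and Cdkn1c in ESCs and brain.

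The gene nearest to the last base was under a peak on 9, 7, 6, 5, 8 and 6 of the 19 chromosomes, and on 6 of them in no library. Of all distal genes 76.7, 69, 68.4, 66.2, 72.3 and 71.6% were under a peak, and 14.6% in no library. On chromosome 4 it was Klhl17, a kelch protein 21.2 kb from the end by its TSS, the only one under a peak in all 6 libraries, with 2, 2, 3, 4, 4 and 1 peaks. On chromosome 19 it was Csf2ra, a cytokine receptor subunit 38.1 kb from the end, of which 86.9% in ESCs, 25.4% in MEFs, 0% in brain, 75.2% in liver, 91.6% in shGFP ESCs and 78.9% in shSuz12 ESCs lay under peaks. Csf2ra was covered in all libraries but brain. On chromosomes 10 and 15 it was Vmn2r87, a vomeronasal receptor, and Glycam1, a mucin-like glycoprotein, both bare.

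The excess at the ends was largest between protein-coding genes, the only genes used to divide the sequence here. Per Mb of each kind of sequence, intergenic peaks were 1.95, 1.73, 1.91, 1.82, 1.81 and 1.83 times as dense in the distal ends as in the rest, and intronic peaks 1.62, 1.4, 1.41, 1.31, 1.6 and 1.63 times. For exons it was 1.21, 1.26, 1.21, 1.19, 1.35 and 1.35 times, and within 1 kb of a TSS 1.17, 1.17, 1.09, 1.16, 1.18 and 1.26 times. Promoters therefore differed least from the rest of the chromosomes, in every library. Of the distal peaks, 51.2, 49.8, 58.6, 60.1, 49.7 and 52.3% had their midpoint in introns and 36, 43, 32, 28.1, 36.5 and 34.8% between genes. The median width of a distal peak, in bp, was 902 in ESCs, 854 in MEFs, 1108 in brain, 1072 in liver, 821 in shGFP ESCs and 574 in shSuz12 ESCs, against 837, 813, 1058, 1009, 771 and 563 bp in the rest. The median score, by which MACS ranks peaks, was 202, 62.5, 52.5, 176, 94.5 and 54.5 against 175, 57.8, 49.5, 161, 86.6 and 53. Distal peaks were thus slightly wider and of higher score in each list.

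Distal peaks were more often shared between lists. Among the distal peaks of ESCs, 53.3% met a peak of MEFs by at least 1 bp, 49.8% one of brain and 41.7% one of liver, against 47.3, 43.7 and 38% in the rest. Seen from the other lists, 48.1% of the distal peaks of MEFs, 55.6% of brain and 56.3% of liver met one of ESCs, against 37.6, 45.1 and 45.5%. Peaks in no other list made up 8.32, 25.9, 16.3, 17.1, 5.82 and 9.48% of the distal peaks, against 10.6, 34.2, 22.3, 23.5, 9.52 and 14.3%. Fewer distal peaks than others were private to a list, in each library. Those that met a peak in all 6 lists were 9.85, 8.66, 11.6, 14.7, 12.8 and 12.8%, against 7.27, 5.61, 7.89, 9.54, 9.11 and 8.76%. More of the distal sequence lies under peaks, and its part in this sharing was not tested.

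The sequences under these shared peaks are shown for the 5 windows of highest rank, as the central 200 bases of the widest stretch that lay under a peak in all 6 libraries and met no annotated exon. They are read from the plus strand of NCBIM37 (mm9), 5′ to 3′, with each CpG, the site at which 5hmC can occur, in capitals. The stretch in the first window (2248 bp, chr8:123079666-123079865 shown) lies in an intron of Gse1, that in the next (1387 bp) in Zfpm1, and those on chromosomes 4 (860 bp) and 11 (1509 bp) in introns of Ube4b and Sept9. The fifth (1423 bp) lies between named genes, within the long annotated span of Gm20388, named after the values were seen, which also covers the first and second. The runs hold 6, 2, 9, 4 and 4 CpGs, where 200 distal bases hold 2.11 on average and 200 bases of the rest 1.67. All but the second of them were above the distal average. The windows were chosen for their peak density, which followed CpG density across the distal windows. The window on chromosome 4, for example, has 15.9 CpGs per kb, against 10.5 in the distal ends as a whole. The peak over the first had a score of 3100, 616, 134, 3100, 3100 and 463, and that over the third 1033, 281, 32.5, 769, 297 and 219. In brain the peak over the third was close to the lowest score of the list.
chr8:123079666-123079865: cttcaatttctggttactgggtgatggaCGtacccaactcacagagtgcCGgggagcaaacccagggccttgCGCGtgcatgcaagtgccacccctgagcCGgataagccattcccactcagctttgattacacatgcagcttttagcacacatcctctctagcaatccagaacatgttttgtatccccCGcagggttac
chr8:124854187-124854386: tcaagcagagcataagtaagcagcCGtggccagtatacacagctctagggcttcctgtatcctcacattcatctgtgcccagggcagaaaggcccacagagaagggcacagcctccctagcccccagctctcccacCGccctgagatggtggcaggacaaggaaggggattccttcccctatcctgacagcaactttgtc
chr4:148771114-148771313: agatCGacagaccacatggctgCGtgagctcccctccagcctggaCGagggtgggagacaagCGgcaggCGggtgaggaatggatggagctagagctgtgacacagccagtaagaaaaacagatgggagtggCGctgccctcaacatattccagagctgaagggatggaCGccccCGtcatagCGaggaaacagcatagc
chr11:117153334-117153533: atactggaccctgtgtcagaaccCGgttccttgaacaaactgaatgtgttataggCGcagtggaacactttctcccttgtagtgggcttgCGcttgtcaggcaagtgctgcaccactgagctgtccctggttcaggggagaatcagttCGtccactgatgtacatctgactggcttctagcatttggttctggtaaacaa
chr8:123948881-123949080: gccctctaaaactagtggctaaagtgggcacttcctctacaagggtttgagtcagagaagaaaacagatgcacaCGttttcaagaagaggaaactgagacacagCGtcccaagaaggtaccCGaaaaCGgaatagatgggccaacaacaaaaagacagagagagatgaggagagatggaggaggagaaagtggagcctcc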

How the data were processed

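GLIB-Seq measured 5hmC in 6 libraries, and the deposited peak lists give a score for each peak, made by the authors with CASAVA 1.8, Bowtie 0.12.7 (unique hits, redundant reads collapsed) and MACS 1.4.1. The lowest deposited score was 80, 30, 30, 80, 50 and 30.3, and depth is unknown. Peak midpoints and merged bp were counted per sequenced base of NCBIM37 with Python 3.11.15, numpy 2.4.6 and scipy 1.17.1, with genes of GENCODE vM1, and the code was tested on simulated peaks. Intervals are exact binomial or Poisson. Members and lists were chosen with earlier results of these data known. Genes were named by rule: up to 3 with the most bp under peaks in each of the 10 highest-ranked windows and in each family, up to 2 in the 3 highest and 3 lowest windows of each pair, and the last gene of chromosomes named. Alternatives changed the peaks, the counting, the lengths, the extent of the ends, the autosomes and the classes. Families with fewer than 10 distal members are not described, RNA-Seq was not used here, and 1 window that the rule picks is not reported here.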

Additional observations from a re-analysis of the deposited data

Results flagged for a closer look

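The last 10 Mb of chromosome X, which the comparisons of the autosomes do not use, also held peaks: 29 in ESCs, 103 in MEFs, 11 in brain, 13 in liver, 39 in shGFP ESCs and 55 in shSuz12 ESCs. They are given here because peaks were found in data that the comparisons leave out. Per sequenced Mb these were 2.93, 10.4, 1.11, 1.31, 3.94 and 5.56, against 1.96, 4.3, 0.0723, 0.598, 2.05 and 2.62 in the rest of chromosome X. Chromosome X as a whole had only 0.0282, 0.0517, 0.00206, 0.0118, 0.0391 and 0.0485 times the peak density of the autosomes. Its distal end thus held few peaks in every library, and the cause was not tested.

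On chromosome 2 the ratio of peak density between the distal end and the rest was 1.44 in ESCs, 1.09 in MEFs, 1.12 in brain, 0.908 in liver, 1.34 in shGFP ESCs and 1.35 in shSuz12 ESCs. It is given here because liver lay on the other side of 1 from the other libraries. At equal gene class chromosome 2 was below 1 in all 6 libraries, at 0.993, 0.957, 0.928, 0.63, 0.935 and 0.933. With 1 library each, the difference was not tested.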

How the results depend on the processing

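The distal to rest ratio of peak density stayed above 1 in every library under every alternative. Its values outside the main counting interval were 1.999 in ESCs, 1.71 in MEFs, 1.79 in brain, 1.69 in liver, 1.91 in shGFP ESCs and 1.85 in shSuz12 ESCs for the highest-scoring 50% of each list, and 1.79 in MEFs, 1.95 in brain, 1.87 in shGFP ESCs and 2.11 in shSuz12 ESCs for peaks with a score of at least 80. They were 1.97 in ESCs, 1.7 in MEFs, 1.74 in brain, 1.66 in liver, 1.88 in shGFP ESCs and 1.84 in shSuz12 ESCs by bp covered, and 1.81 in ESCs, 1.62 in MEFs, 1.69 in brain, 1.58 in liver, 1.77 in shGFP ESCs and 1.81 in shSuz12 ESCs with N bases included in the lengths. They were 1.48 in ESCs, 1.24 in MEFs, 1.32 in brain, 1.43 in liver, 1.42 in shGFP ESCs and 1.44 in shSuz12 ESCs for the last 5 Mb, and 1.76 in shGFP ESCs for the last 20 Mb. They were 1.71 in ESCs, 1.53 in MEFs, 1.58 in brain, 1.46 in liver, 1.64 in shGFP ESCs and 1.67 in shSuz12 ESCs without chromosome 8, and 1.5 in ESCs, 1.72 in MEFs, 1.68 in brain, 1.41 in liver, 1.39 in shGFP ESCs and 1.42 in shSuz12 ESCs as the median of the autosomes. The other 7 values lay within the main interval, but for ESCs and liver, whose lists start at a score of 80, that filter removes no peak and its value is the main value.

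The ratio at equal gene class also stayed above 1. Its values outside the main interval were 1.06 in ESCs, 1.19 in MEFs, 1.14 in brain, 1.03 in liver, 1.06 in shGFP ESCs and 1.09 in shSuz12 ESCs with GC classes, 1.71 in ESCs, 1.58 in MEFs, 1.62 in brain, 1.47 in liver, 1.66 in shGFP ESCs and 1.61 in shSuz12 ESCs for the 50% highest scores, 1.65 in MEFs, 1.76 in brain, 1.63 in shGFP ESCs and 1.82 in shSuz12 ESCs for a score of at least 80, 1.69 in ESCs, 1.58 in MEFs, 1.58 in brain, 1.45 in liver, 1.63 in shGFP ESCs and 1.61 in shSuz12 ESCs by bp covered, and 1.5 in MEFs and 1.53 in brain with all annotated genes. The other 6 lay within it, of which ESCs and liver at a score of at least 80 are the main values again. The number of autosomes with a denser distal end stayed within 1.5 times the main count in all 42 comparisons, but rose from 16 to 19 of 19 in brain for a score of at least 80 and from 16 to 19 in MEFs for the last 20 Mb, so chromosomes 3, 17 and 18 turned there. For the last 5 Mb it fell in every library, to 14 in ESCs, 13 in MEFs, 13 in brain, 13 in liver, 13 in shGFP ESCs and 14 in shSuz12 ESCs. The ratio of the distal shares of shSuz12 and shGFP ESCs turned from 1.02 to 0.973 for the 50% highest scores and 0.983 by bp covered, and was 1.11 for a score of at least 80. Alternatives chosen after seeing the data were these: without the windows that overlap Sox5 and Pard3, the distal windows without a protein-coding TSS were at 0.443 in ESCs, 0.826 in MEFs, 0.934 in brain, 1.15 in liver, 0.76 in shGFP ESCs and 0.903 in shSuz12 ESCs times the rest, which turned the direction in all libraries but liver. Without the autosome with the most peaks there, the last 1 Mb was at 0.546 in ESCs, 0.482 in MEFs, 0.428 in brain, 0.79 in liver, 0.532 in shGFP ESCs and 0.507 in shSuz12 ESCs times the rest. Without Sox5, the part of the span of distal developmental factors under peaks was 29.1 in ESCs, 16.9 in MEFs, 23.6 in brain, 33.7 in liver, 21.6 in shGFP ESCs and 11.3 in shSuz12 ESCs, in percent. For all these changes the cause was not tested.

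With 1 library for each condition, no paired analysis was possible. The counting intervals hold no spread between animals or cultures. Sequencing depth is unknown, so the lists cannot be brought to the same depth, and 5hmC below the limit of detection is not seen in windows with few peaks. The lists start at different scores, and the number and width of peaks differ with them. Windows and genes next to each other are not independent. GC content, CpG content and gene density vary together along the chromosomes, so their parts in the distal excess cannot be told apart by these comparisons. Mappability was not analysed here.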
